A study of Mus musculus with 8 samples.

Results

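The genes described here are 33 markers of macrophages and other leukocytes, taken from an array that carries 27528 gene names. They were listed by name as known markers of these cells, with earlier results of these data known, and every non-control probe whose gene name is one of the 33 or an older alias was used (Emr1 for Adgre1, Sfpi1 for Spi1, Cxcl4 for Pf4, Lyzs for Lyz2, Lzp-s for Lyz1 and Csf2rb1 for Csf2rb). All 33 were on the array, through 59 probes and 77 spots. Testing required a probe flagged well above background on 4 or more of the 8 arrays, which left 31 of the 33. Of these, 29 were above background on all 8 arrays, and Fcgr2b and Msr1 were so on 3 of 4 wild-type arrays and on every mutant array. Spi1 and Itgam did not pass.

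RNA came from dorsal pancreatic epithelium dissected by hand from e12.5 mouse embryos, measured on 8 one-colour Agilent arrays. The 4 mutant RNAs were from Sox9fl/fl; Pdx1-Cre embryos and the 4 wild-type RNAs from Sox9fl/fl littermates, so that both groups carry the floxed Sox9 alleles and only the mutants carry Cre, which Pdx1 regulatory sequence drives in the developing pancreas. The strain is Sox9-flox on a mixed FVB/N x C57Bl/6J background crossed to Pdx1-Cre on C57Bl/6J. Each RNA was a pool from 3 embryos, of which 250 ng was labelled, and Cre and the mutant genotype are the same split of the samples. The series text names a smaller number of biological replicates than the 4 arrays a genotype used here, and the p-values measure the spread between these 8 arrays.

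Macrophages of the embryo arise from yolk sac and fetal liver progenitors and settle in organ rudiments as these form. They depend on the receptor Csf1r and its ligands Csf1 and Il34, and on the transcription factor PU.1, which Spi1 encodes. They take up dying cells and debris through scavenger and Fc receptors, signal through adaptors with an immunoreceptor tyrosine-based activation motif (ITAM) such as Tyrobp and Fcer1g, degrade what they engulf with lysosomal enzymes, and are a main source of the complement protein C1q. Csf1r, Adgre1 and Ptprc are regarded as products of these cells and not of pancreatic epithelium, and dissected epithelium can carry macrophages that lie in or against it.

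Because many of these genes are known targets of PU.1, the upstream sequence of some of them is shown with matches to a word that PU.1, a factor of the ETS family, prefers, GAGGAAGT. RefSeq promoters (GRCm38.p6, 250 bases before each start) were matched for 24 of the 33 genes. The windows shown are those of Laptm5 and C1qc, which passed the test below, of C1qb, the neighbour of C1qc, and of the paralogues Lyz1 and Lyz2. Capitals mark every match, on either strand, to GAGGAAG or AGGAAGT, the overlapping 7-base parts of that word. Each window is printed 5′ to 3′ on the gene's own strand: Laptm5 at chr4:130913066-130913315 on the plus strand, and on the minus strand C1qb at chr4:136886201-136886450, C1qc at chr4:136892915-136893164, Lyz1 at chr10:117292869-117293118 and Lyz2 at chr10:117282273-117282522.
Laptm5: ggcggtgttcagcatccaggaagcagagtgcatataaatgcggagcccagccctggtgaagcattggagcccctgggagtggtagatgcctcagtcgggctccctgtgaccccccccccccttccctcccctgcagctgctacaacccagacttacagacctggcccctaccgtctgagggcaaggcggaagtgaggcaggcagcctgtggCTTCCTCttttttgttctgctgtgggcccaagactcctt
C1qb: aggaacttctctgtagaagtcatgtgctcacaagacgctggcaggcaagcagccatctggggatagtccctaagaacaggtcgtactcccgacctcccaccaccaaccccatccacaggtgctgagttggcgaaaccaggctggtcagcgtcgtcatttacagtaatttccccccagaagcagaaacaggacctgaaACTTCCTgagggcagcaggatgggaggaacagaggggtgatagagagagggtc
C1qc: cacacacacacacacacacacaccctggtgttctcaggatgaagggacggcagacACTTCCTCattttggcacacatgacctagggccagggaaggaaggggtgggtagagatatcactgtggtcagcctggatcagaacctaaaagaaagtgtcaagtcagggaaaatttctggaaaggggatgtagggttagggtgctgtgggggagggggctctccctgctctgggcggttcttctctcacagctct
Lyz1: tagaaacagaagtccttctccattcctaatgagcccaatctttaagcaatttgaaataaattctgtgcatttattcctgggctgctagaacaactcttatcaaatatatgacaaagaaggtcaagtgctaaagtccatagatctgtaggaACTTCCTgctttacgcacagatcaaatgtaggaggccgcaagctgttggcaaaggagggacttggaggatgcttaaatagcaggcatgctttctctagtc
Lyz2: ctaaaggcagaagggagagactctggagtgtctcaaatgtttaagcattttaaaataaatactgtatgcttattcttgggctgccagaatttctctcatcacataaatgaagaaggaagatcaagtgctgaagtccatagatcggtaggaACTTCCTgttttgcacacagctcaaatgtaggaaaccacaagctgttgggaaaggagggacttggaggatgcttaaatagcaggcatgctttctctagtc

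The match lay 100 bases upstream of the start in both Lyz1 and Lyz2, whose upstream windows were identical at 205 of 260 aligned positions (78.8%). C1qb and C1qc shared 46.6% of aligned positions, with the match 53 bases upstream in C1qb and a joined pair of matches, together the whole word GAGGAAGT on the opposite strand, about 195 bases upstream in C1qc. In Laptm5 the match lay 39 bases upstream. The corresponding window of Fcer1g, which also passed the test, held neither form. Searched on both strands, AGGAAGT was present in 10 of the 24 windows (41.7%) and in 8.8% of 27025 genes with a RefSeq promoter, GAGGAAG in 8 (33.3%) against 12.0%, and GAGGAAGT in 3 against 2.79%. The shorter overlapping words GAGGAA and GGAAGT were present in 14 and 13 of the 24 (58.3% and 54.2%) against 25.9% and 22.2% of genes, and AGAGGAA in 5 (20.8%) against 9.85%. A C/EBP-type word, TTGCNNAA, was present in 5 of the 24 (20.8%) against 10.8%. These are letter matches in a short window and say nothing of binding.

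Levels below are log2 processed signal minus the 75th percentile of the same array, so that 0 is that percentile, and differences are mutant minus wild-type with the standard error (SE) of a linear model fitted over all 18351 genes (limma, Benjamini-Hochberg adjustment, threshold 0.05). The 75th percentile lay between 372 and 640 units of signal and between 59.4% and 77.7% of spots were well above background. Sox9, the deleted gene, was 3.01, 2.13, 1.82 and 2.19 for wild-type replicates 1 to 4 against -0.61, -1.79, -0.01 and 0.77 for the mutants in the same order. All mutant arrays lay below all wild-type arrays, by 2.70 in the mean (SE 0.517, limma adjusted p = 0.025). The arrays lay on 3 slides, each with both genotypes: wild-type 2 and mutant 3 on slide 1, wild-type 3 and mutants 1 and 4 on slide 2, and wild-type 1 and 4 and mutant 2 on slide 3. The sex of the pools ran in part with genotype, since Ddx3y, Eif2s3y and Kdm5d of the Y chromosome lay between -7.44 and -3.78 in wild-type replicates 1, 2 and 4 and between -3.43 and 0.89 in the 5 other pools, and Xist was at -5.73 in mutant replicate 1 and between 3.11 and 4.75 elsewhere.

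The mean level of every measured macrophage and leukocyte gene was higher in the Sox9 mutant than in the wild-type pools, and 5 of these differences passed the test. The median difference of the 31 measured genes was 0.63 on the log2 scale (1.55-fold), against 0.02 for all genes tested, and all 31 differences were above 0, against 53.0% of all genes. Csf1r, Adgre1, Fcer1g, Laptm5 and C1qc rose, none fell, and 26 did not pass the threshold. The 5 calls are 16.1% of the measured genes, beside 1.58% of all genes tested that were called higher, 3.89% called lower and 5.47% called either way. An unadjusted limma p below 0.05 with a higher mutant mean was found for 27 of the 31, beside 8.95% of all genes. Mutant and wild-type arrays did not overlap for 22 of the 31 (71.0%), beside 7.27% of all genes on the same side and 7.99% on the opposite one. Most mesenchymal, endothelial and mesothelial genes, described below, also lay above 0 without overlap. In simulated data with 4 against 4 arrays, a log2 change of 0.5 was recovered in 4% of changed genes and a change of 1 in 48%. There only 50 of 18351 genes were changed at each size and no slide effect was added, while 1003 genes were called in these data. Adjusted p-values depend on the share of changed genes, so these rates cannot be carried over to the 31 genes. In bulk RNA a larger number of cells of a type and more RNA per cell cannot be told apart.

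**Figure D1:**
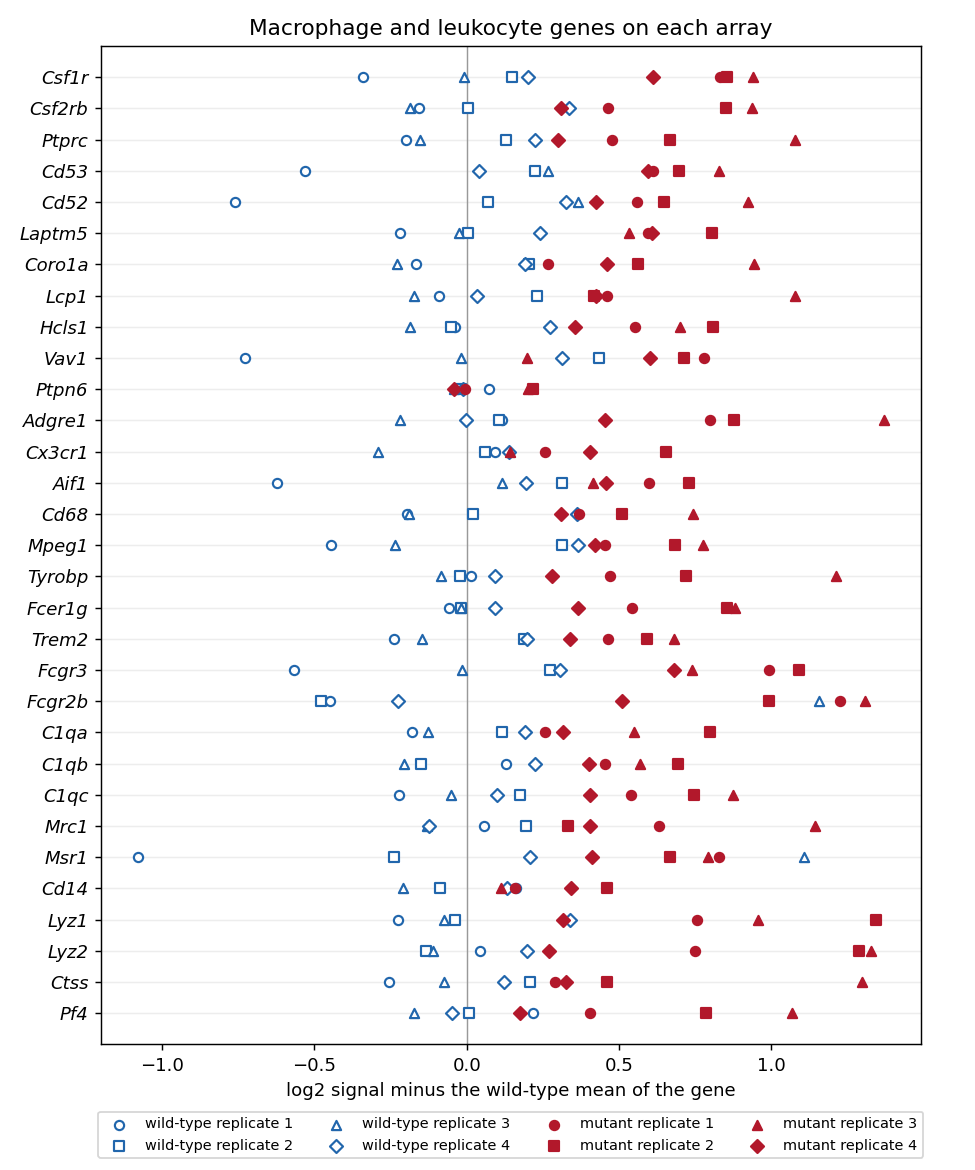
Log2 signal of each of the 31 measured genes on each array, minus the gene's mean over the 4 wild-type arrays (open blue symbols, wild-type; filled red symbols, mutant; one symbol shape per replicate number). Most red symbols lie to the right of the blue ones, with mutant replicate 3 farthest right in 19 genes and mutant replicate 4 leftmost of the mutants in 21.

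The receptor that keeps macrophages alive gave the clearest difference among the defining markers. Csf1r was 1.17, 1.66, 1.51 and 1.72 for wild-type replicates 1 to 4 against 2.35, 2.37, 2.46 and 2.13 for the mutants in the same order. Each mutant array was above each wild-type array. It rose by 0.81 (SE 0.147, 1.75-fold, limma adjusted p = 0.0211; two-sided exact permutation p = 0.0286, the smallest that 4 against 4 arrays can give). Its rise was 0.79, 0.73 and 0.92 within slides 1, 2 and 3 and 0.82 in a fit blocked by slide (limma adjusted p = 0.0335). Csf1r no longer passed without wild-type replicate 3 or mutant replicate 1 or 2 (limma adjusted p = 0.0581, 0.0673 and 0.0643), and when the gene's 3 kept probes were averaged (0.70, adjusted p = 0.094).

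Adgre1, which encodes a surface antigen used to define mouse macrophages, was measured by a probe at mm8 chr17:57168755-57168814. Its level was 0.9998, 0.99, 0.66 and 0.88 for wild-type replicates 1 to 4 against 1.68, 1.76, 2.25 and 1.34 for the mutants in the same order. The groups were apart, with mutant replicate 3 highest and mutant replicate 4 the lowest mutant. Adgre1 rose by 0.87 (SE 0.194, 1.83-fold, limma adjusted p = 0.0401), and by 1.26, 0.84 and 0.82 within slides 1, 2 and 3 (0.95 with slide as a block, adjusted p = 0.0194). It stayed called without mutant replicate 3 or 4 and not without any of the 6 other arrays (limma adjusted p from 0.076 to 0.105). A further Adgre1 probe was above background on no wild-type and 3 mutant arrays and was not tested.

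Ptprc encodes CD45, a phosphatase carried by nearly all leukocytes. It was -1.79, -1.46, -1.74 and -1.36 for wild-type replicates 1 to 4 against -1.11, -0.92, -0.51 and -1.29 for the mutants in the same order. The groups did not overlap, but mutant replicate 4 lay within 0.07 of wild-type replicate 4. The difference of 0.63 (SE 0.189) did not pass (limma adjusted p = 0.101) and passed with slide as a block (0.69, adjusted p = 0.0447; 0.95, 0.54 and 0.66 within slides 1, 2 and 3). The probe had 10 spots an array, whose SD within an array was between 0.02 and 0.07, while the array means had an SD of 0.21 over the wild-type and 0.33 over the mutant arrays.

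Cx3cr1, the fractalkine receptor of resident macrophages, differed by 0.37 (SE 0.152, limma adjusted p = 0.238), with mutant replicate 3 only just above the highest wild-type array. Cd68, an endosomal glycoprotein, differed by 0.48 (SE 0.163, adjusted p = 0.14) and Aif1, the actin-bundling protein Iba1, by 0.55 (SE 0.208, adjusted p = 0.192). Mpeg1, a pore-forming protein of phagocytes, differed by 0.58 (SE 0.205, adjusted p = 0.158). None of these 4 passed, and wild-type replicate 1 was well below the other wild-type arrays for Aif1 (0.38 against 1.11 to 1.31). Csf2rb, the common beta chain of cytokine receptors, differed by 0.64 (SE 0.185, adjusted p = 0.0907) on the probe with the higher signal and by 0.18 on another. Whether these probes separate it from its close copy Csf2rb2 was not tested.

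Among the ITAM adaptors and receptors, Fcer1g, the common gamma chain of activating Fc receptors, had the narrowest wild-type spread of the called genes. It was 1.07, 1.11, 1.11 and 1.22 for wild-type replicates 1 to 4 against 1.67, 1.98, 2.01 and 1.49 for the mutants in the same order, on a probe at mm8 chr1:173066338-173066397. The groups were apart by 0.27. It rose by 0.66 (SE 0.139, 1.58-fold, limma adjusted p = 0.0335), and by 0.90, 0.47 and 0.84 within slides 1, 2 and 3 (0.72 with slide as a block, adjusted p = 0.0282). A second probe that partly overlaps it differed by 0.66 as well. The call held without mutant replicate 4 and was lost on leaving out any of the 7 other arrays (limma adjusted p from 0.0641 to 0.0955).

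Tyrobp, the adaptor DAP12, differed by 0.67 (SE 0.195, limma adjusted p = 0.0924), with a mutant range of 0.85 to 1.78 above a wild-type range of 0.49 to 0.66. Its partner Trem2, a lipid-sensing receptor, differed by 0.52 (SE 0.143, adjusted p = 0.0799) on the probe used and by 0.55 on its other probe. Fcgr3, a low-affinity activating IgG receptor, differed by 0.88 (SE 0.21, adjusted p = 0.0515) and by 0.89 on its other probe. For all 3 the groups were apart, and none passed the threshold. Fcgr2b, the inhibitory IgG receptor, had the largest measured difference of the list in the fit reported, 1.01, with an SE of 0.376 (adjusted p = 0.184). Its wild-type replicate 3, at -2.85, lay inside the mutant range of -3.50 to -2.70, while the other wild-type arrays lay between -4.49 and -4.24. The Fcgr2b difference was 0.28 with normexp background correction, 0.41 in the authors' value table and 1.11 with quantile normalization. Its other kept probes differed by 1.18 and 0.32.

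**Figure D2:**
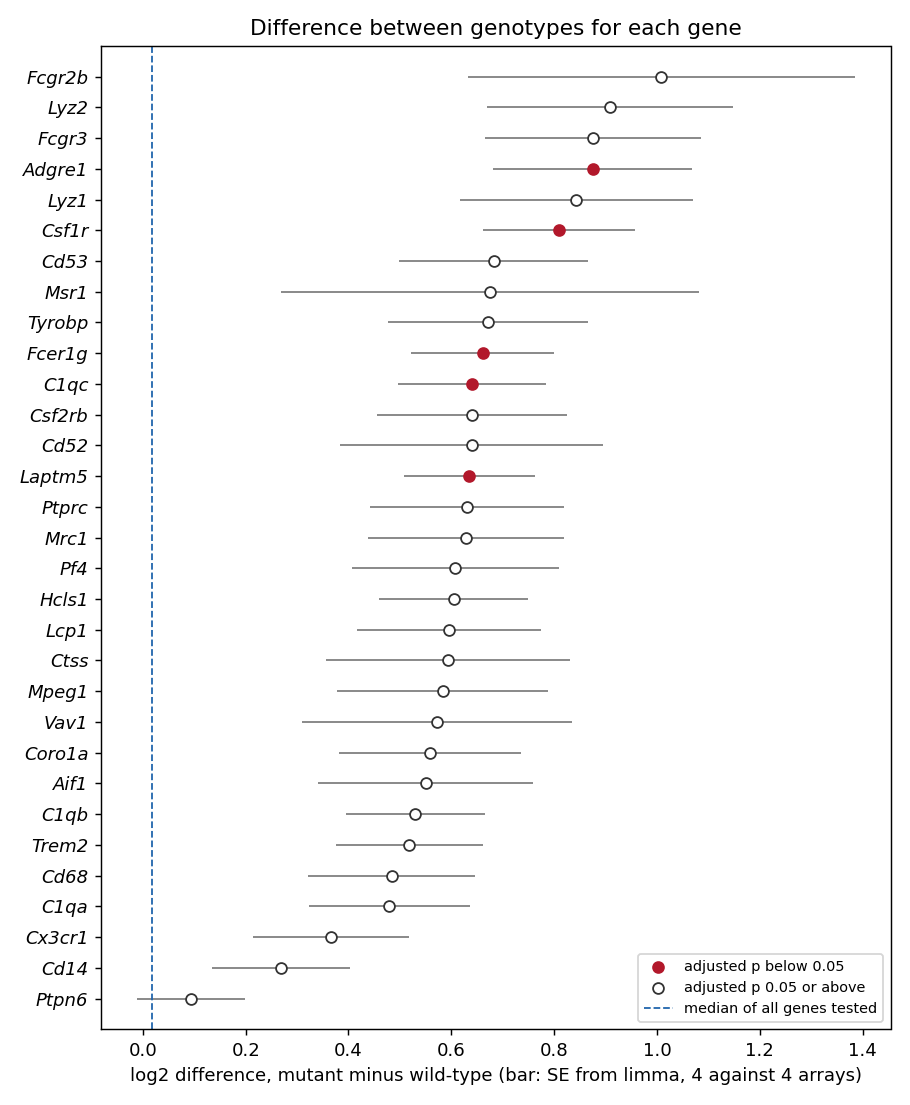
Log2 difference, mutant minus wild-type, with its limma SE for the 31 measured genes (filled, adjusted p below 0.05; open, 0.05 or above), beside the median of all genes tested (dashed, 0.02). Differences run from 0.09 for Ptpn6 to 1.01 for Fcgr2b, and the 5 called genes lie between 0.64 and 0.87.

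The subunits of C1q, which opens the classical complement pathway, are encoded by adjacent genes. Their probes lay on mm8 at chr4:136152739-136152798 (C1qb), chr4:136161927-136161986 (C1qc) and chr4:136168570-136168629 (C1qa). C1qc was 1.82, 2.22, 1.99 and 2.14 for wild-type replicates 1 to 4 against 2.58, 2.79, 2.92 and 2.45 for the mutants in the same order, with no overlap. It rose by 0.64 (SE 0.144, 1.56-fold, limma adjusted p = 0.0423), by 0.70, 0.52 and 0.81 within slides 1, 2 and 3, and by 0.67 with slide as a block (adjusted p = 0.0323). It was called without mutant replicate 4 and lost without any of the 7 other arrays (limma adjusted p from 0.0641 to 0.12). C1qb differed by 0.53 (SE 0.135, adjusted p = 0.0635) and C1qa by 0.48 (SE 0.156, adjusted p = 0.127). Neither passed, and mutant and wild-type arrays did not overlap for either gene.

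Lyz1 and Lyz2 encode lysozymes, with Lyz2 the form typical of macrophages. Lyz2 was 3.09, 2.91, 2.93 and 3.24 for wild-type replicates 1 to 4 against 3.80, 4.33, 4.37 and 3.32 for the mutants in the same order. Mutant replicates 2 and 3 were more than 1 log2 unit above every wild-type array, and mutant replicate 4 was 0.07 above wild-type replicate 4. The difference of 0.91 (SE 0.239, 1.88-fold) did not pass (limma adjusted p = 0.0692) and passed with slide as a block (1.05, adjusted p = 0.0319; 1.46, 0.62 and 1.17 within slides 1, 2 and 3). Lyz1 was -0.48, -0.29, -0.33 and 0.08 for wild-type replicates 1 to 4 against 0.50, 1.09, 0.70 and 0.06 for the mutants in the same order. Its groups overlapped through mutant replicate 4, and the difference was 0.84 (SE 0.226, adjusted p = 0.0731). The Lyz1 probe is listed on the array against the transcripts of both genes and the Lyz2 probes against Lyz2 only, so the Lyz1 value is uncertain.

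Among the other lysosomal and uptake genes, Laptm5, a lysosomal membrane protein of blood cells, was -2.33, -2.11, -2.13 and -1.87 for wild-type replicates 1 to 4 against -1.52, -1.31, -1.58 and -1.50 for the mutants in the same order. The mutant arrays lay close together and above all wild-type arrays. Laptm5 rose by 0.64 (SE 0.128, 1.55-fold, limma adjusted p = 0.0291; probe at mm8 chr4:130206946-130207005), by 0.70 on its second probe, by 0.53, 0.63 and 0.79 within slides 1, 2 and 3, and by 0.66 with slide as a block (adjusted p = 0.0437). It was called without wild-type replicate 4 or mutant replicate 3 and lost on leaving out any of the 6 other arrays (limma adjusted p from 0.0549 to 0.0848).

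Ctss, the lysosomal protease cathepsin S, differed by 0.59 (SE 0.237, limma adjusted p = 0.217), with mutant replicate 3 at 3.20 and the other mutants between 2.19 and 2.36. Mrc1, the mannose receptor CD206, differed by 0.63 (SE 0.19, adjusted p = 0.103) without overlap. Msr1, the class A scavenger receptor, differed by 0.67 with an SE of 0.406 (adjusted p = 0.456), and wild-type replicate 3 was the highest of the 8 arrays. Cd14, the lipopolysaccharide co-receptor, differed by 0.27 (SE 0.133, adjusted p = 0.339) with overlapping groups. None of these 4 passed the threshold.

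The pan-leukocyte surface proteins and the actin and signalling proteins of blood cells followed the same range. Cd53, a tetraspanin, differed by 0.68 (SE 0.184, limma adjusted p = 0.0744) and Cd52, a small glycosylated surface peptide, by 0.64 (SE 0.255, adjusted p = 0.217), both without overlap. Coro1a and Lcp1, which bind and bundle actin, differed by 0.56 (SE 0.177, adjusted p = 0.118) and 0.60 (SE 0.179, adjusted p = 0.102). Hcls1, a cortactin relative of blood cells, differed by 0.60 (SE 0.145, adjusted p = 0.0521). Vav1, a guanine nucleotide exchange factor for Rac, differed by 0.57 (SE 0.263, adjusted p = 0.293) with overlapping groups. None of these 6 passed.

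Ptpn6, the phosphatase SHP-1, had the smallest difference of the 31, at 0.09 (SE 0.105, limma adjusted p = 0.767) on the probe used. Its other kept probes, both with lower signal, differed by 0.77 and 0.71, and neither passed. Pf4, a chemokine of megakaryocytes that fetal macrophages also express, differed by 0.61 (SE 0.202, adjusted p = 0.134), with mutant replicate 4 just below wild-type replicate 1.

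Spi1 and Itgam gave no measurement. The Spi1 probe was above background on none of the 8 arrays, and its listed position spans 13788 bases, so it crosses at least one intron. The 2 Itgam probes, for the integrin subunit CD11b, were above background on 1 and 2 arrays. Without the filter, differences of 0.05 for Spi1 and 0.55 for Itgam had limma adjusted p = 0.982 and 0.874.

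The probes of a gene mostly gave like differences. Of the 59 probes of the list, 51 were kept, and all 51 differences were above 0. Among 27389 kept probes fitted singly, 1028 were called, 5 of them from 4 of these genes (Adgre1, Csf1r, Fcer1g and 2 probes of Laptm5), and the C1qc probe did not pass there (limma adjusted p = 0.0545). Of the 16 genes with several kept probes, none had probes on opposite sides of 0. Probe differences lay within 0.03 of each other for Aif1, Fcer1g, Fcgr3, Trem2 and Vav1, while those of Ptpn6, Fcgr2b, Csf2rb, Lcp1 and Msr1 were more than 0.3 apart.

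**Figure D3:**
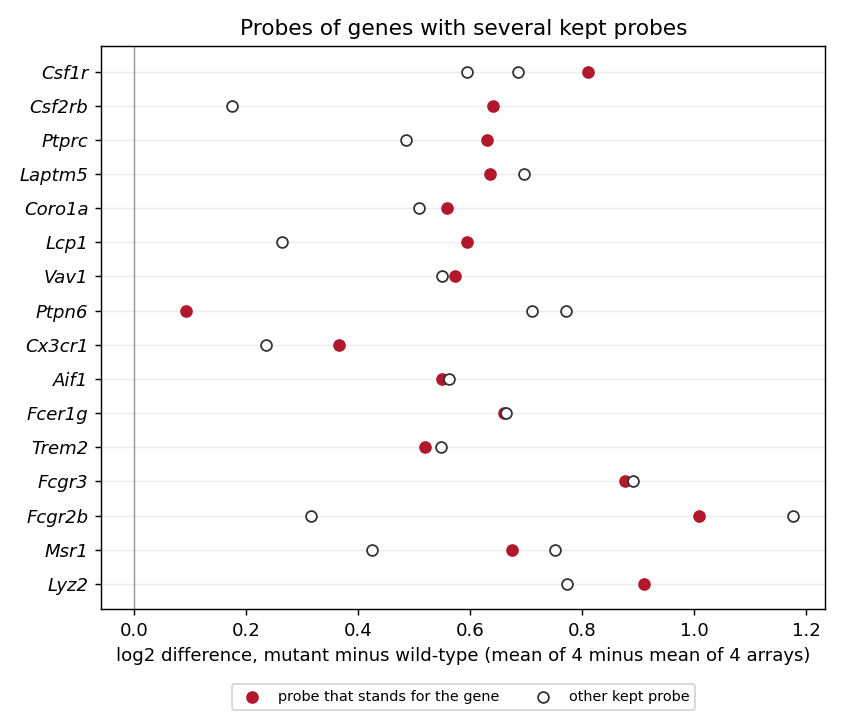
Log2 difference, mutant minus wild-type, of every kept probe of the 16 genes with more than 1 kept probe (filled, the probe with the highest mean signal, which stands for the gene; open, the others). All symbols lie right of 0, and Ptpn6 runs from 0.09 to 0.77.

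The difference was not equal across pools. The median level of the 31 genes was 0.15, 0.22, -0.04 and 0.08 for wild-type replicates 1 to 4 against 0.74, 1.08, 1.05 and 0.50 for the mutants in the same order. Mutant replicate 3 was the highest of the 8 arrays for 19 genes and mutant replicate 2 for 10, and the lowest of the 8 was wild-type replicate 1 for 17 and wild-type replicate 3 for 12. Mutant replicate 4 was the lowest mutant for 21. Within slides 1, 2 and 3 the median difference was 0.75, 0.55 and 0.76, and 28 of the 31 genes were above 0 on every slide. In the pools with both Xist and Y-linked signal (wild-type replicate 3 against mutant replicates 2, 3 and 4, a comparison added after seeing the data) 29 of the 31 differences were above 0 with a median of 0.76. The exceptions were Fcgr2b (-0.22) and Msr1 (-0.48). With a single wild-type pool none was called by limma, and 7 of the 31 had an unadjusted p below 0.05. Wild-type replicate 3 was the lowest of the 8 arrays for 12 genes, and the part of sex in the differences was not tested.

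The number of called genes depended on single arrays and on the model. Leaving out wild-type replicates 1, 2, 3 or 4 left 1, 1, 1 and 2 of the 31 called, and leaving out mutant replicates 1, 2, 3 or 4 left 0, 0, 3 and 7. Calls over all genes went from 1003 to 519, 658, 494 and 402 without wild-type replicates 1 to 4. Without mutant replicates 1 to 4 they were 412, 449, 708 and 982. In the 2 fits with 0 calls among the 31, 23 of these genes each had an unadjusted limma p below 0.05, compared with 27 in the fit of all arrays. How many of all genes were below that p in these 2 fits is not given here, so the 23 have no share beside them. With slide as a block 15 were called, beside 432 of 18351 genes called higher (2.35%) and 1287 called either way in that fit. All 31 differences stayed above 0 in each of these 9 fits.

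**Figure D4:**
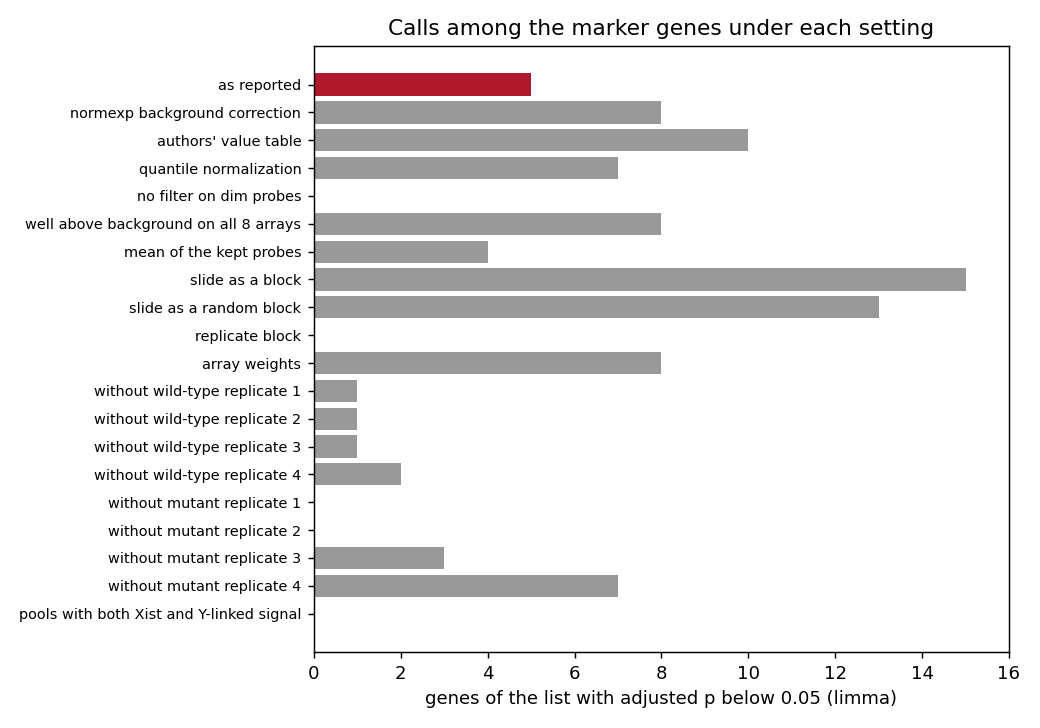
Number of the macrophage and leukocyte genes with a limma adjusted p below 0.05 in the fit reported (red) and under each other setting (grey). Counts run from 0, without the filter on dim probes, with a replicate block, without mutant replicate 1 or 2, and in the pools with both Xist and Y-linked signal, to 15 with slide as a block.

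The Csf1 axis and myeloid chemokines were mixed. Of 9 measured genes of 10, Csf1 rose by 0.56 (SE 0.123, limma adjusted p = 0.0389), none fell, and the median difference was 0.51 beside 0.02 for all genes. Csf1, the ligand of Csf1r that stromal cells make, was 0.34 ± 0.13 in the wild-type and 0.90 ± 0.17 in the mutant arrays (SD, n = 4 each). Il34, the other ligand, was lower by 0.55 and did not pass (adjusted p = 0.23). Of 10 myeloid transcription factors none rose and Cebpa fell by 0.55 (SE 0.121, adjusted p = 0.0392), with a median of 0.15. Cebpa did not pass with normexp (-0.36, adjusted p = 0.137), in the authors' value table (-0.32, adjusted p = 0.162), with quantile normalization (-0.43, adjusted p = 0.158), as the mean of its kept probes (-0.51, adjusted p = 0.394) or with slide as a block (-0.56, adjusted p = 0.0565). Irf8, which macrophage development requires, differed by 0.63 (SE 0.16, adjusted p = 0.0629) and did not pass.

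Of 10 genes of ITAM and Src-family signalling, Rac2, a small GTPase of blood cells, rose by 0.87 (SE 0.163, limma adjusted p = 0.0233) and Fyb, an adaptor of adhesion signalling, by 0.66 (SE 0.151, adjusted p = 0.0452). The kinase Syk differed by 0.37 (adjusted p = 0.0953) and Plcg2 by 0.05 (adjusted p = 0.925), and the list's median was 0.44. Of 8 measured complement genes outside C1q, C1ra, a protease of the C1 complex, rose by 0.71 (SE 0.141, adjusted p = 0.0277), and C1s1 differed by 0.90 (SE 0.373, adjusted p = 0.234). C1ra did not pass with normexp (0.26, adjusted p = 0.361), in the authors' value table (0.41, adjusted p = 0.105), with quantile normalization (1.02, adjusted p = 0.192) or as the mean of its kept probes (0.39, adjusted p = 0.333), and Fyb did not pass as the mean of its kept probes (0.47, adjusted p = 0.21). Of 17 measured resident macrophage and clearance genes, Cd36, a scavenger receptor that endothelial cells also carry, rose by 0.92 (SE 0.157, adjusted p = 0.017), the receptor tyrosine kinase Axl by 0.67 (SE 0.121, adjusted p = 0.0201) and the metal transporter Slc11a1 by 0.60 (SE 0.136, adjusted p = 0.0448), which did not pass with quantile normalization (0.65, adjusted p = 0.0547). Mertk differed by -0.04 (adjusted p = 0.961), the median was 0.44, and none fell. Each of these lists holds genes that other cells of the tissue also express. Over all 15 context lists outside epithelium, 17 of 119 measured genes were called, beside 5.47% of all genes. Leaving out wild-type replicates 1 to 4 left 1, 6, 0 and 1 of them or others called, and leaving out mutant replicates 1 to 4 left 0, 0, 8 and 21. In the 3 fits with 0 calls in these lists, 57, 49 and 47 of the 119 had an unadjusted limma p below 0.05. For these counts too, the share of all genes below that p is not given here. Calls over all genes in those fits were 494, 412 and 449.

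Markers of other cell types moved with genotype as well. All 8 epithelial genes fell, with a median difference of -2.23, among them Cdh1, which fell by 2.51 (SE 0.409, limma adjusted p = 0.0138), and Epcam, which fell by 2.12 (SE 0.343, adjusted p = 0.0135). The others were Cldn3, Cldn4, Cldn6, Krt8, Krt18 and Esrp1, with differences from -2.75 to -0.98. Of the 8, only Esrp1 stopped passing on leaving out single arrays (any wild-type array, or mutant replicate 1 or 3; limma adjusted p from 0.0514 to 0.0773). Their summed level, in units of the 75th percentile signal, ran from 82.7 to 113 in the wild-type and from 30.9 to 47.8 in the mutant arrays. Mutant replicate 4, the lowest mutant for most macrophage and leukocyte genes, was the highest for Cdh1, at 1.64 against 0.51, -0.35 and -0.27 in mutant replicates 1, 2 and 3. The macrophage and leukocyte genes summed to between 48.1 and 57.2 in the wild-type and between 66.3 and 102 in the mutant arrays. The part of a lower epithelial share in these differences was not tested.

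Of 22 genes listed as markers of the tissue around the epithelium, 7 rose, none fell and 15 did not pass. Of all genes, 1.58% were called higher and 3.89% lower. Of 8 mesenchymal genes, Pdgfra (0.80, limma adjusted p = 0.0345), Col1a2 (0.67, adjusted p = 0.0425) and Postn (0.73, adjusted p = 0.0454) rose, Pdgfrb differed by 0.44 (adjusted p = 0.125), Twist1 by 0.07 (adjusted p = 0.96), and the median was 0.63, as for the macrophage and leukocyte genes. Col1a2 did not pass as the mean of its kept probes (0.17, adjusted p = 0.885), in the authors' value table (adjusted p = 0.079), with quantile normalization (adjusted p = 0.101) or without any single array (adjusted p from 0.0615 to 0.118). Postn did not pass with slide as a block (0.77, adjusted p = 0.0563), nor Eng with normexp (0.48, adjusted p = 0.0566). Of 8 endothelial genes, Emcn (0.67, adjusted p = 0.0339) and Eng (0.54, adjusted p = 0.0476) rose, Pecam1 and Cdh5 differed by 0.41 (adjusted p = 0.128) and 0.46 (adjusted p = 0.417), and the median was 0.50. Of 6 mesothelial genes, Bnc1 (0.94, adjusted p = 0.0327) and Upk1b (0.63, adjusted p = 0.0288) rose, Wt1 differed by 0.998 (adjusted p = 0.0525) and Msln by 0.09 (adjusted p = 0.964), Krt19 was at -0.14 (adjusted p = 0.864), and the median was 0.71. Twist1 and Krt19 are named after their values were seen, and Krt19 is also a keratin of epithelium, so it does not mark mesothelium alone. The summed levels ran from 223 to 296 and 336 to 445 for mesenchyme, from 15.3 to 18.0 and 21.3 to 27.9 for endothelium, and from 5.50 to 6.29 and 7.72 to 11.7 for mesothelium, in wild-type and mutant arrays in that order. All 8 mesenchymal and all 8 endothelial genes were above background on every array. The differences of all 8 mesenchymal, all 8 endothelial and 5 of 6 mesothelial genes were above 0. Mutant arrays lay above wild-type arrays without overlap for 6, 5 and 4 of these genes in that order, beside 7.27% of all genes. The part of these cell types in the macrophage and leukocyte differences was not tested.

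**Figure D5:**
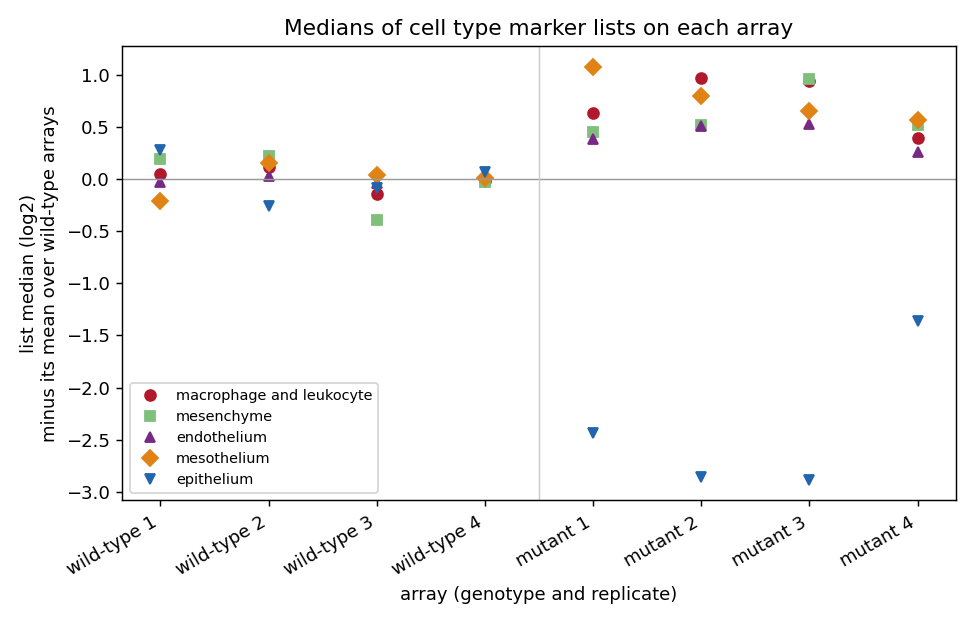
Median log2 level of 5 marker lists on each array, minus the list's mean over the 4 wild-type arrays. In the mutant arrays the epithelial list lies between 1 and 3 units below 0 and the macrophage and leukocyte, mesenchymal, endothelial and mesothelial lists lie above 0, with mutant replicate 4 the nearest to 0 for the epithelial, macrophage and leukocyte, endothelial and mesothelial lists.

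Other blood lineages were sparse or did not pass, though the dendritic cell, megakaryocyte and erythroid lists had medians above 0. Of 10 T, NK and innate lymphoid genes 5 were measured and none called, with a median of 0.01, Cd3e at 0.07 (limma adjusted p = 0.948) and Lck at -0.17 (adjusted p = 0.392). Their summed level was between 0.82 and 1.11 in the wild-type and between 0.88 and 0.96 in the mutant arrays. Of 6 B cell genes 3 were measured, Cd79b rose by 0.86 (SE 0.178, adjusted p = 0.0313), with summed levels of 1.16 to 1.55 and 1.36 to 2.42. Of 4 measured dendritic cell genes of 6, none was called, Itgax (0.64, adjusted p = 0.56) and Flt3 (0.07, adjusted p = 0.952) included, and the sums were 0.39 to 0.74 and 0.48 to 0.80. None of 8 megakaryocyte genes was called, with Itga2b at 0.64 (adjusted p = 0.569), Gp9 at 0.73 (adjusted p = 0.418) and sums of 1.27 to 2.08 and 1.62 to 3.57. None of 8 erythroid genes was called, with Gata1 at 0.44 (adjusted p = 0.569), Klf1 at 0.96 (adjusted p = 0.145) and overlapping sums of 38.0 to 55.7 and 32.95 to 58.5. These sums rest mostly on the globins Hbb-bh1 and Hba-x, named after their values were seen, with wild-type means of 4.38 and 4.34. Both differed by -0.27 and were the only erythroid genes below 0. Across the 5 lists, 1 of 28 measured genes was called, beside 5.47% of all genes called either way. The median difference was -0.24 for the B cell, 0.43 for the dendritic cell, 0.40 for the megakaryocyte and 0.44 for the erythroid genes. All 4 dendritic cell and all 8 megakaryocyte genes were above 0, as were 6 of 8 erythroid genes. Of the T, NK and innate lymphoid genes 3 of 5 were above 0, and of the B cell genes 1 of 3.

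Neutrophil genes had wide spread, and 1 mast cell gene passed. Of 8 measured neutrophil genes none was called by limma, all were above 0, and the median was 1.84, with Mpo, the myeloperoxidase of granules, at 1.12 (SE 0.565, adjusted p = 0.346) and Ctsg at 0.79 (SE 0.648, adjusted p = 0.633). Their summed level was between 2.81 and 13.7 in the wild-type and between 13.3 and 41.4 in the mutant arrays. Of 7 measured mast cell genes, Cpa3, a mast cell carboxypeptidase, rose by 1.75 (SE 0.353, adjusted p = 0.0293), from -2.29 ± 0.51 to -0.54 ± 0.62 (SD, n = 4 each), and did not pass with slide as a block (1.72, adjusted p = 0.0538). Kit, which other progenitors also carry, differed by 0.16 (adjusted p = 0.58). The mast cell list had a median of 0.59 and summed to between 2.35 and 2.81 in the wild-type and between 3.02 and 4.97 in the mutant arrays. Several genes of the macrophage and leukocyte list, such as Ptprc, Coro1a, Fcer1g and Lcp1, are also expressed by these cells, whose part in the differences was not tested.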

How the data were processed

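The 8 arrays were grouped by genotype as the labels give it. Per the file headers, Agilent Feature Extraction 9.5.3.1 made the scanner files. Their deposited processed signal is a linear intensity with a fitted background surface subtracted and a multiplicative trend divided out, surrogate values for dim spots and without between-array scaling. Deposited mean and local background signals are raw intensity, and the deposited flag columns hold quality marks and no other measurement. The authors' deposited value table holds linear intensity for 33067 features with a median of 227 on every array. The submitters' processing notes name limma, and the steps behind that table are not given in the sources used here.

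From 45018 spots, 1639 controls were dropped, as were spots that the scanner software marked as outliers (6 spots of the list). Log2 signal minus the array's 75th percentile was averaged over spots of a probe. Probes well above background on at least 4 arrays were kept, and the probe with the highest mean stood for a gene. Names came from RefSeq accessions (23395 probes), another probe of that name (4503), a synonym (1961) or the file (11315). Groups were compared with limma 3.58.1 (R 4.3.3; lmFit and eBayes, two-sided, Benjamini-Hochberg over 18351 genes) without a block, and by exact permutation (two-sided, 70 assignments). The fit was tested on simulated data. Probe positions are those of the files on mm8, and no annotation of that build was used to place probes in exons. The list and the context lists were chosen with earlier results of these data known. Values in every array are given for Csf1r, Ptprc, Sox9, called genes and the Lyz pair, and each context list is given by its first 2 measured and its called genes, except 1 gene that is not reported here. Figures and sequence searches used Python 3.11.15, pandas 2.3.3, Biopython 1.88 and matplotlib 3.10.9; data.table was version 1.17.8. Alternatives covered the background correction, the authors' table, quantile normalization, filters, the choice of probe, slide, replicate numbers, array weights and left-out arrays.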

Additional observations from a re-analysis of the deposited data

Results flagged for a closer look

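Of 64 groups of 4 arrays examined for a single array far from the rest (31 genes and Sox9 in both genotypes), 3 held one beyond Dixon's critical value, and chance marks about 1 group in 20. Lcp1 was 1.06 in mutant replicate 3, and the nearest other mutant was at 0.44. Ctss was 3.20 in the same array, with the nearest other mutant at 2.36. Fcgr2b was -2.85 in wild-type replicate 3, with the nearest other wild-type array at -4.24.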

How the results depend on the processing

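The direction held more widely than the calls. The 5 calls among the 31 genes became 8 with normexp background correction, 10 of 33 in the authors' value table, 7 with quantile normalization, 8 with probes above background on all 8 arrays, 4 with the mean of kept probes, 15 and 13 with slide as a fixed or random effect, and 8 with weighted arrays. They became 0 without the filter on dim probes and 0 with a replicate block (26 of 33 and 26 of 31 with unadjusted limma p under 0.05). These unadjusted counts have no share of all genes beside them here. Leaving out 1 array gave 0 to 7. Over all genes, 1003 calls became 1287 with slide as a fixed effect, 419 without the filter, 340 with the replicate block, 1538 with random slide effects, 1670 under array weights and 402 to 982 on leaving out an array. The 17 calls in context lists outside epithelium became 1 without the filter, 2 with the replicate block, 26 with random slide effects and 25 under array weights, and 0 to 21 on leaving out an array. The median difference of 0.63 became 0.45 with array weights, which gave mutant replicate 3 the lowest weight (0.318), and lay between 0.54 and 0.70 on leaving out an array and between 0.53 and 0.63 under the other planned settings. The groups did not overlap for 21 to 26 genes in the planned settings. In the authors' table Itgam had -0.03 and the 32 further genes were above 0. In the pools with both Xist and Y-linked signal, a comparison added after seeing the data, no gene was called among the 31, the context lists or all genes (7, 27 and 2256 with unadjusted limma p under 0.05), the median was 0.76, and Fcgr2b (-0.22) and Msr1 (-0.48) reversed. Samples with the same replicate number did not deviate together (correlations of -0.352, -0.296, -0.005 and 0.087), and the fit reported does not pair them. Arrays of the same number lay on different slides, so these correlations cannot tell whether such pools came from the same litters. The cause of the changed counts was not tested. The number of arrays limits precision, and Fcgr2b and Msr1 were each not above background on 1 wild-type array.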

Other observations

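The neutrophil genes S100a9 and Camp were named after their values were seen, because their differences exceeded those of the macrophage and leukocyte genes. S100a9, a calcium-binding protein of neutrophils and monocytes, was 0.52, 3.21, 2.26 and 1.90 for wild-type replicates 1 to 4 against 3.22, 4.68, 3.91 and 3.23 for the mutants in the same order. Every mutant array was above every wild-type array, the closest by 0.01, and the difference of 1.79 did not pass (SE 0.566, limma adjusted p = 0.118). Camp, the cathelicidin of granules, was -5.65, -1.88, -2.49 and -4.02 for wild-type replicates 1 to 4 against -0.99, -0.04, -0.64 and -1.24 for the mutants in the same order, a difference of 2.78 that did not pass either (SE 0.76, adjusted p = 0.0777). Wild-type replicate 1 was the lowest and mutant replicate 2 the highest of the 8 arrays for both genes.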
